A study of Homo sapiens with 6 samples.

Results

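Lamin B1-only stretches are runs of sequence that both lamin B1 replicates placed in a lamina domain and that neither LC3 replicate placed in an LC3 domain. They were selected by the 4 deposited domain lists alone: a base had to lie in lamin B1 replicates 1 and 2 and outside LC3 replicates 1 and 2. There were 254 such stretches, which covered 126 Mb, or 9.68% of the 1305 Mb that both lamin B1 lists shared in 597 consensus domains. The 4 lists held 2118 domains in all, which together covered 1742 Mb. Because these positions chose the stretches, the amount of lamin B1-only sequence, its classes and its lengths are a description and were not tested.

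The data come from chromatin immunoprecipitation with sequencing in IMR90 cells, a line of human lung fibroblasts. Lamin B1, LC3 and input chromatin were each sampled in 2 replicates, from untreated cells kept at 3% oxygen, and every group shared this single condition. All findings therefore concern 1 line in 1 state, the labels do not say whether replicates were separate cultures, and the spread between lists may be technical. Input reads were not analysed here. The lists give positions only, so the depth is unknown and the identity of the cells could not be checked against marker genes. A stretch outside an LC3 list is a stretch where that list holds no domain, which does not show that LC3 was absent.

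Lamin B1 is a filament protein of the nuclear lamina, the meshwork beneath the inner nuclear membrane. Sequence bound by it forms lamina-associated domains, which are mostly gene-poor, late replicating and rich in repressive histone marks. LC3 is a small ubiquitin-like protein that becomes attached to lipid during autophagy, and it is known to bind lamin B1 in the nucleus. The lists thus allow a direct question: which lamina domains, or parts of them, were listed for lamin B1 without LC3?

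The stretches were of 3 kinds, set by their place in the lamin B1 consensus domain. A whole domain had no base of either LC3 list anywhere in it. An edge remnant reached 1 end of a lamin B1 domain that held LC3 further in. An interior gap lay inside a lamin B1 domain with LC3 on both of its sides. Whole domains numbered 75 and covered 56.7 Mb (44.9% of lamin B1-only sequence), edge remnants numbered 166 and covered 52.4 Mb (41.4%), and interior gaps numbered 13 and covered 17.3 Mb (13.7%). Remnants were thus the most frequent kind, while whole domains held slightly more sequence.

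Lengths differed by kind. Whole domains had a median of 0.601 Mb (interquartile range 0.407 to 0.946 Mb) and ran from 0.124 to 2.83 Mb. Edge remnants had a median of 0.105 Mb (0.0225 to 0.282 Mb) and ran from 1 kb to 5.79 Mb. Interior gaps had a median of 1.26 Mb, and the shortest was 0.498 Mb. Of the edge remnants, 32 were at most 10 kb long and summed to 0.100 Mb. The lists are built on bins of 3, 4, 5 and 3 kb, so remnants of this size are near the step of the lists. Another 48 measured over 10 and up to 100 kb and summed to 2.53 Mb. The 10 edge remnants over 1 Mb held 26.1 Mb, or 49.8% of all remnant sequence. The 18 whole domains over 1 Mb likewise held 48.2% of whole-domain sequence.

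**Figure D1:**
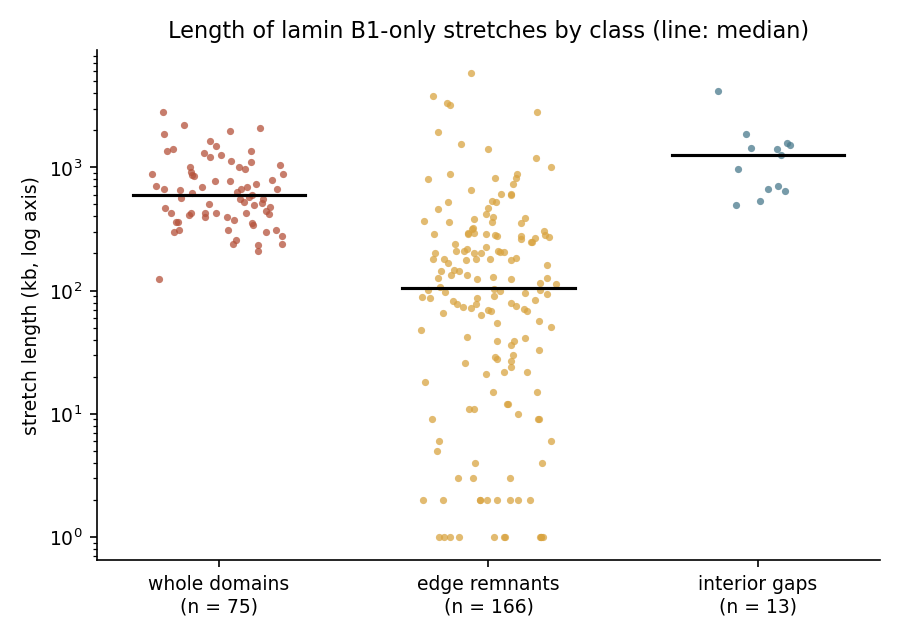
Length of each lamin B1-only stretch in kb on a log axis, with 1 point per stretch and a line at the median of each kind. Edge remnants spread from 1 kb to 5.79 Mb, whereas whole domains start at 0.124 Mb and interior gaps at 0.498 Mb.

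The amount of sequence without LC3 depended on which replicate lists were compared. When 1 lamin B1 list was set against 1 LC3 list, the sequence outside LC3 was 280 Mb for lamin B1 replicate 1 and LC3 replicate 1. It was 203 Mb for lamin B1 replicate 1 and LC3 replicate 2. With lamin B1 replicate 2 it was 257 Mb against LC3 replicate 1 and 165 Mb against LC3 replicate 2. The mean was 226 ± 52.0 Mb (SD over 4 pairs, which share lists), or 16.2 ± 3.7% of the length of the lamin B1 list. Both pairs with LC3 replicate 1 lay above both pairs with LC3 replicate 2. The number of whole domains was 122 ± 23.7 over the same pairs and ranged from 93 to 150. The share of the sequence in whole domains varied less, from 47.4% to 53.3%. Requiring presence in both lamin B1 lists and absence from both LC3 lists brought the total down to 126 Mb. A further 138 Mb of lamin B1 consensus sequence was in 1 LC3 list and not in the other. Without LC3 replicate 2 the 254 stretches and 126 Mb became 345 stretches and 237 Mb, with 124 whole domains. Without LC3 replicate 1 they became 316 stretches and 154 Mb, with 92 whole domains.

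**Figure D2:**
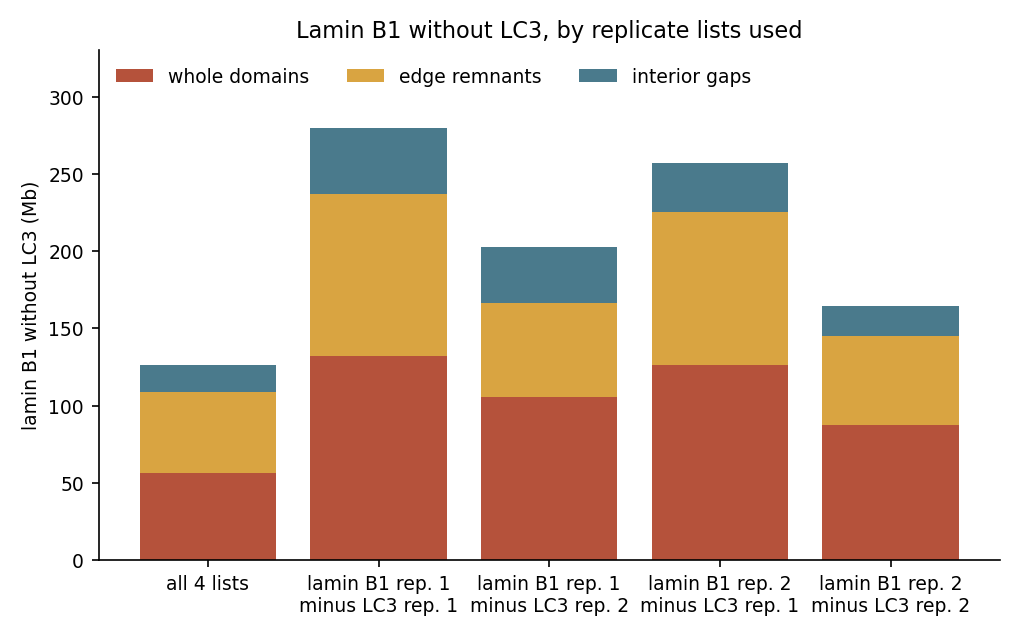
Lamin B1 sequence without LC3 in Mb, stacked by kind, for all 4 lists together and for each pair of a lamin B1 and an LC3 replicate. The single pairs reach 165 to 280 Mb against 126 Mb for all 4 lists, and the pairs with LC3 replicate 1 are the higher ones.

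Few lamin B1 domains that held LC3 were nearly free of it. Of 597 lamin B1 consensus domains, 374 lay entirely within LC3 of at least 1 list and 75 had none. No domain was over 95% and under 100% free of LC3, and only 4 were over 75% and up to 95% free of it. The shortest LC3 domains measured 360 kb in replicate 1 and 177 kb in replicate 2. An LC3 domain lying wholly inside a short lamin B1 domain therefore took up a large part of it. For this reason the empty range does not by itself mark whole domains as a separate class. Just outside the limit stood the domains chr22:47580001-49732000 (90.0% free), chr12:125664001-132132000 (89.5%), chr11:55029001-56979000 (80.0%) and chr7:143400001-147596000 (76.6%), all positions in GRCh37/hg19. Just inside it, the whole domains closest to any LC3 were chr6:28977001-29535000, at a distance of 135 kb, chr1:29643001-29876000 at 154 kb and chr7:20912001-21836000 at 214 kb. No whole domain touched an LC3 domain at its outer side. The median distance from a whole domain to the nearest base of either LC3 list was 1.46 Mb (interquartile range 0.593 to 3.21 Mb), and 45 of 75 lay more than 1 Mb away. To the nearest stretch in all 4 lists the median was 2.97 Mb, measured for 74 domains because chromosome 19 had no such stretch. The whole domains farthest from LC3 were both on chromosome 16, chr16:9396001-9876000 at 38.9 Mb and chr16:19986001-20712000 at 28.1 Mb.

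**Figure D3:**
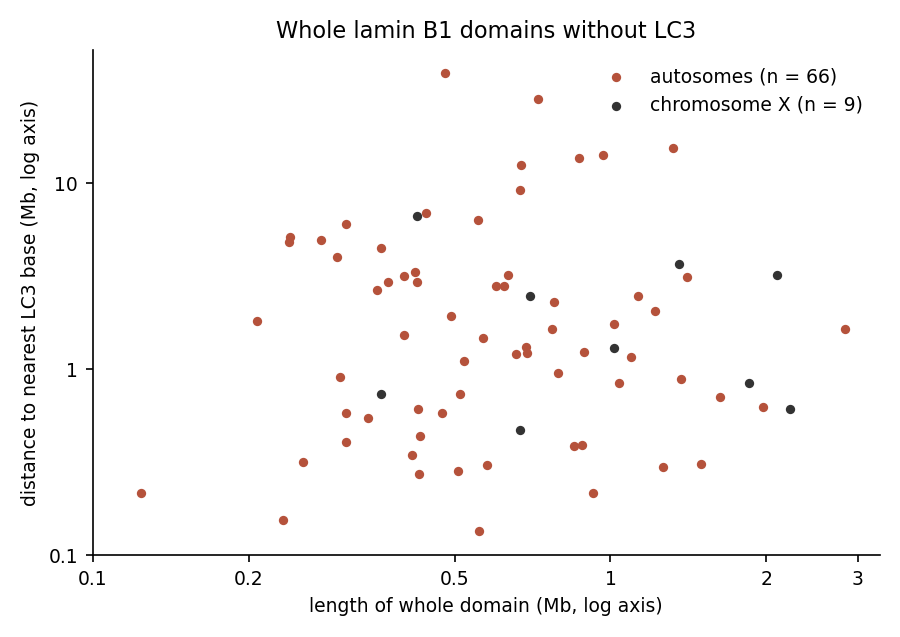
Each of the 75 whole domains by its length in Mb and its distance in Mb to the nearest base of either LC3 list, both on log axes, with chromosome X marked apart. Distances run from 0.135 to 38.9 Mb, and the 6 domains more than 10 Mb away measure 0.480 to 1.32 Mb.

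Shorter lamin B1 domains more often lacked LC3 altogether. LC3 was missing from both lists in 30 of 100 domains under 0.5 Mb (30%), in 27 of 168 from 0.5 to 1 Mb (16.1%) and in 15 of 149 from 1 to 2 Mb (10.1%). It was missing in 3 of 117 domains from 2 to 5 Mb (2.56%) and in 0 of 63 longer ones. Whether domain length alone would give this order was not tested. LC3 replicate 1 listed no domain shorter than 360 kb, and LC3 replicate 2 none shorter than 177 kb. Of the whole domains, 14 were shorter than 360 kb and 1 was shorter than 177 kb, and these 14 summed to 3.79 Mb. Of 37 lamin B1 consensus domains under 360 kb, 23 held LC3. LC3 of replicate 1 in these can come only from LC3 domains that ran past their edges. Whether the least length of a listed LC3 domain bears on the short domains without LC3 was not tested. Remnants followed another order. Among lamin B1 domains with LC3, a remnant or gap was found in 12.9% of those under 0.5 Mb, 22.7% from 0.5 to 1 Mb, 34.3% from 1 to 2 Mb, 34.2% from 2 to 5 Mb and 34.9% of the longer ones, so the share was level from 1 Mb upwards.

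**Figure D4:**
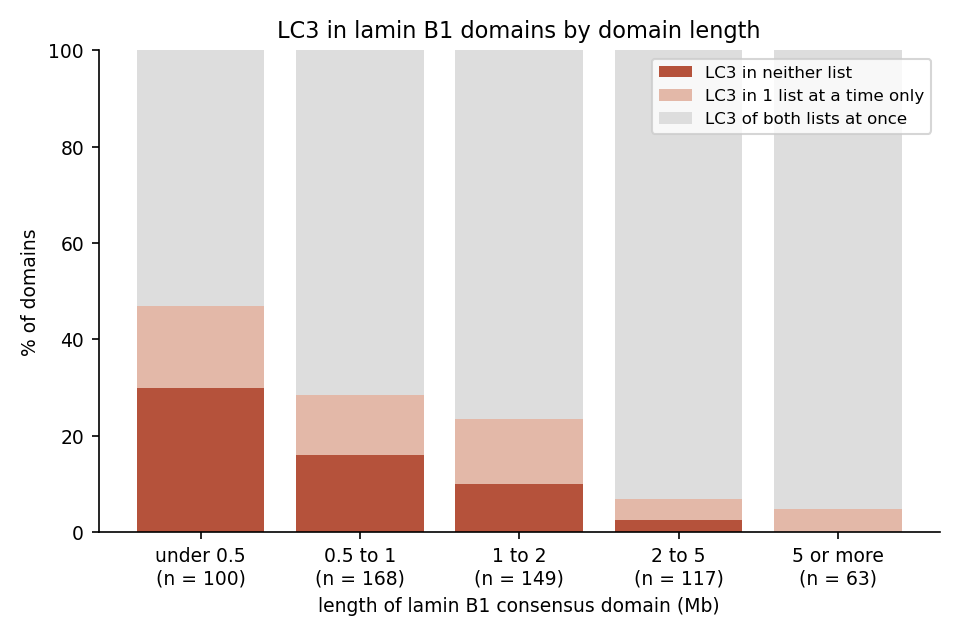
Percent of lamin B1 consensus domains in 5 classes of length that had LC3 in neither list, in 1 list at a time only, or of both lists at once. The part without LC3 in either list falls from 30% under 0.5 Mb to 0 of 63 domains of 5 Mb or more.

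Edges of whole domains differed between the 2 lamin B1 replicates by a few kilobases in many cases and by far more in others. The edges come from the same lists that chose the stretches, so the distance between them is a description only. It was taken where 1 domain of replicate 1 matched 1 domain of replicate 2, which held for 69 of 75 whole domains (92.0%), for 56 of 66 domains with LC3 in 1 list at a time (84.8%) and for 361 of 456 domains with LC3 of both lists (79.2%). The median distance was 8.0 kb for 138 edges of whole domains (interquartile range 1.25 to 38.5 kb). It was 2.0 kb for 112 edges of domains with LC3 in 1 list at a time (1 to 36.5 kb) and 12.5 kb for 722 edges of domains with LC3 of both lists (2 to 55 kb). These 3 ranges overlap over most of their width. The edges of the replicates differed by at most 10 kb for 53.6%, 62.5% and 46.8% of edges, respectively. The share of the joined lamin B1 stretch that both replicates held was taken over all domains of a kind, matched or not. Domains within 1 joined stretch each got the value of that whole stretch. Its median was 93.4% for whole domains, 94.04% for domains with LC3 in 1 list at a time and 94.7% for domains with LC3 of both lists. Whole domains thus lay between the other 2 kinds by edge distance of matched domains. Their median share was lowest by a small margin, and the interquartile ranges overlapped (82.6% to 98.0%, 83.5% to 99.4% and 82.5% to 98.7%). For 6 whole domains, 1 lamin B1 replicate ran on into a longer domain that did hold LC3. The longest of them, chr X from 77520001 to 79746000, was 1 complete domain in replicate 1 but part of an 18.2 Mb domain in replicate 2.

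The 10 longest whole domains lay on 7 chromosomes. The longest, chr8:33660001-36492000 (2.83 Mb), was a domain of 2.95 Mb in lamin B1 replicate 1 and of 2.83 Mb in replicate 2, with the same right edge. LC3 replicate 1 held nothing for 6.21 Mb to its left and 12.6 Mb to its right, and LC3 replicate 2 held short domains 1.63 and 2.57 Mb away. It was followed by chrX:77520001-79746000 (2.23 Mb), which had an LC3 replicate 2 domain 0.609 Mb to its right and none of replicate 1 nearer than 8655 kb. Next came chrX:5524001-7620000 (2.10 Mb), for which both LC3 lists had their first domain to the right at 3.22 Mb. The domain chr19:28116001-30084000 (1.97 Mb) had the same edges in both lamin B1 lists. LC3 replicate 1 had a domain 0.626 Mb beyond it, and LC3 replicate 2 listed 0 domains on that chromosome. The others were chrX:65187001-67040000 (1.85 Mb), chr20:53264001-54892000 (1.63 Mb), chr7:152636001-154132000 (1.496 Mb), chr18:13852001-15260000 (1.41 Mb), chr21:40980001-42348000 (1.37 Mb) and chrX:62847001-64206000 (1.36 Mb). All 10 were surrounded by LC3-free sequence of at least 0.308 Mb on each side, since the nearest LC3 base, on chromosome 7, lay at that distance. The 3 shortest whole domains were chr12:34436001-34560000 (0.124 Mb), chr15:25296001-25504000 (0.208 Mb) and chr1:29643001-29876000 (0.233 Mb). In lamin B1 replicate 1, the first of these belonged to a domain of 1.66 Mb.

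Edge remnants were unevenly divided between trimmed ends and long tails. The 522 lamin B1 domains with LC3 had 1044 edges, and a remnant lay at 166 of them (15.9%), so at the other edges LC3 of at least 1 list reached the lamin B1 edge. Remnants occurred at both edges of 21 domains and at 1 edge of 124. LC3 replicate 2 alone adjoined 97 of the remnants, LC3 replicate 1 alone adjoined 59, and both lists stopped at the same kilobase beside 10. Of the remnants, 112 lay in domains that had LC3 of both lists at once and summed to 25.6 Mb. From these, LC3 of both lists began at a median of 21.5 kb, and within 100 kb for 79. The other 54 lay in domains where LC3 came from 1 list at a time, and they summed to 26.8 Mb. In all, 66 lamin B1 consensus domains had LC3 from 1 list at a time only, with or without a remnant. If LC3 were required in both lists, these 66 would join the 75 as whole domains and make 141. Lamin B1 sequence without LC3, whole domains and other stretches together, would then be 265 Mb, of which whole domains held 52.4%.

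The 5 longest remnants were tails of 2.83 to 5.79 Mb, each adjoining an LC3 domain of 0.680 to 2.12 Mb. On chromosome 12, both lamin B1 lists held a domain of about 6.5 Mb (6.47 Mb in replicate 1 and 6.52 Mb in replicate 2), and LC3 replicate 1 held only its last 0.680 Mb. LC3 replicate 2 held nothing there and ended 9.39 Mb to the left. The remnant chr12:125664001-131450000 thus measured 5.79 Mb and was the longest stretch of any kind. On chromosome 8, LC3 replicate 1 covered the end of the short arm up to 2100000, and LC3 replicate 2 had no domain before 7104001. The remnant there, chr8:2100001-5904000, was 3.80 Mb long within lamin B1 domains of 5.72 and 5.78 Mb. On chromosome 16, the remnant chr16:60472001-63807000 (3.34 Mb) was followed by LC3 replicate 2 directly and by LC3 replicate 1 after 318 kb. On chromosome 7, chr7:144380001-147596000 (3.22 Mb) followed LC3 domains of 0.980 and 0.609 Mb that both began at the left edge of the lamin B1 domain. On chromosome 21, chr21:20883001-23716000 (2.83 Mb) followed an LC3 replicate 2 domain of 1.49 Mb, while the LC3 replicate 1 domains nearest to it were 2.49 and 3.99 Mb away.

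Interior gaps were few, long and confined, in these lists, to 8 lamin B1 domains on 5 chromosomes. All 13 lay in domains that also held LC3 of both lists. The longest, chr5:23055001-27255000 (4.200 Mb), lay inside a lamin B1 domain of 13.755 Mb in replicate 1 and 13.688 Mb in replicate 2. LC3 replicate 1 stopped at its left border and resumed 3.22 Mb after its right border, whereas LC3 replicate 2 stopped 825 kb before it and resumed at its right border. The gap chr11:39030001-40887000 (1.86 Mb) was more closely matched. LC3 replicate 1 stopped 105 kb before it and resumed 3 kb after it, and LC3 replicate 2 adjoined it on both sides. The gap chr3:3975001-5505000 (1.53 Mb) began at the same kilobase in both LC3 lists and ended 80 kb apart. The gap chr5:164805001-166374000 (1.57 Mb) ended within 1 kb in both lists but began 860 kb earlier in replicate 1. The gap chrX:28299001-29730000 (1.43 Mb) was bounded on both sides by LC3 replicate 2, with replicate 1 more than 1.31 Mb away on either side. Chromosome 5 carried 8.94 Mb of interior gaps and X carried 3.11 Mb.

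Some of the longest stretches fall on well-known large genes. Gene positions of this build were not used here, so the placement in this paragraph is general knowledge of the human genome, no gene was counted, and the genes were picked after the stretches were known. The tail on chromosome 8 surrounds CSMD1, which encodes a very large membrane protein with complement-control domains. The tail on chromosome 12 surrounds TMEM132B, TMEM132C and TMEM132D, single-pass membrane proteins. CDH9 and CDH10 lie in the longest gap on chromosome 5 and CDH8 in the tail on chromosome 16, and all 3 encode cadherins, calcium-dependent adhesion proteins. The tail on chromosome 7 takes in part of CNTNAP2, a neurexin-family protein of axons, and the tail on chromosome 21 takes in NCAM2, an immunoglobulin-type adhesion protein. Among whole domains, the longest surrounds the netrin receptor gene UNC5D, the domain at 40980001 on chromosome 21 surrounds DSCAM, another immunoglobulin-type adhesion gene, and the domain at 152636001 on chromosome 7 takes in part of DPP6, a potassium channel subunit. On X, the domain at 5524001 surrounds the neuroligin gene NLGN4X, and the interior gap at 28299001 takes in part of IL1RAPL1. The whole domains named on chromosomes 18 and 19 lie beside centromeres.

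Lamin B1-only sequence was spread unevenly over the chromosomes. The most was on X with 18.3 Mb, followed by chromosomes 8 (11.7 Mb), 5 (10.96 Mb), 7 (10.2 Mb) and 16 (9.58 Mb). The least was on chromosomes 4 (0.281 Mb), 17 (0.780 Mb), 9 (0.790 Mb), 13 (1.51 Mb) and 19 (2.15 Mb). As a share of the lamin B1 consensus length of a chromosome, the highest values were 82.5% on chromosome 22, 71.8% on 19, 52.3% on 16, 49.4% on 21 and 23.4% on X. The lowest were 0.242% on chromosome 4, 1.77% on 9, 2.50% on 2, 2.79% on 13 and 2.93% on 3. Chromosomes 16, 19, 21, 22 and X together held 8.91% of lamin B1 consensus sequence but 31.3% of lamin B1-only sequence and 22 of the 75 whole domains. Chromosomes 19 and 22 had little lamin B1 sequence to begin with, 2.99 and 3.93 Mb, so their shares rest on 2 and 5 domains. Whole domains occurred on 21 of 23 chromosomes and were missing from chromosomes 4 and 9.

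The kind of stretch also differed between chromosomes. On X, whole domains made up 10.7 Mb, edge remnants 4.47 Mb and interior gaps 3.11 Mb. On chromosome 12, edge remnants made up 7.49 Mb and whole domains 1.20 Mb. On chromosome 5, interior gaps made up 8.94 Mb and whole domains 0.423 Mb. Whole domains prevailed on chromosome 7 with 6.42 Mb against 3.79 Mb of remnants, while chromosome 16 was divided evenly between 4.95 Mb of whole domains and 4.63 Mb of remnants.

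Shares by chromosome were repeatable to different degrees. For chromosome 16 the 4 pairs of single lists gave 54.1% to 65.1% of lamin B1 length outside LC3, and for chromosome 22 they gave 81.5% to 91.5%. These ranges rest on few LC3 domains: replicates 1 and 2 listed 8 and 6 on chromosome 16, and 3 and 2 on chromosome 22. Chromosome 21 ranged from 49.5% to 70.6%. For X, the pairs with LC3 replicate 1 gave 63.9% and 67.8%, and those with LC3 replicate 2 gave 30.1% and 29.2%. On X, 31.98 Mb of lamin B1 consensus sequence (40.9%) was in 1 LC3 list only, so its 23.4% depends on both LC3 lists being used. For chromosome 17 the pairs ran from 11.4% to 50.8%, and for chromosome 19 from 62.3% to 100%. The 100% was fixed in advance, since LC3 replicate 2 listed 0 domains on chromosome 19. For chromosome 4, the pairs with LC3 replicate 1 gave 11.04% and 8.84%, and those with LC3 replicate 2 gave 2.14% and 0.719%. With lamin B1 replicate 1 and LC3 replicate 1, chromosomes 2 (7.15%), 3 (7.55%) and 9 (10.4%) were lower than chromosome 4. Its place as the lowest thus depends on the LC3 list used. The part of all lamin B1-only sequence that lay on X was 14.5%, and it was 20.7% without LC3 replicate 2 and 12.6% without LC3 replicate 1.

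**Figure D5:**
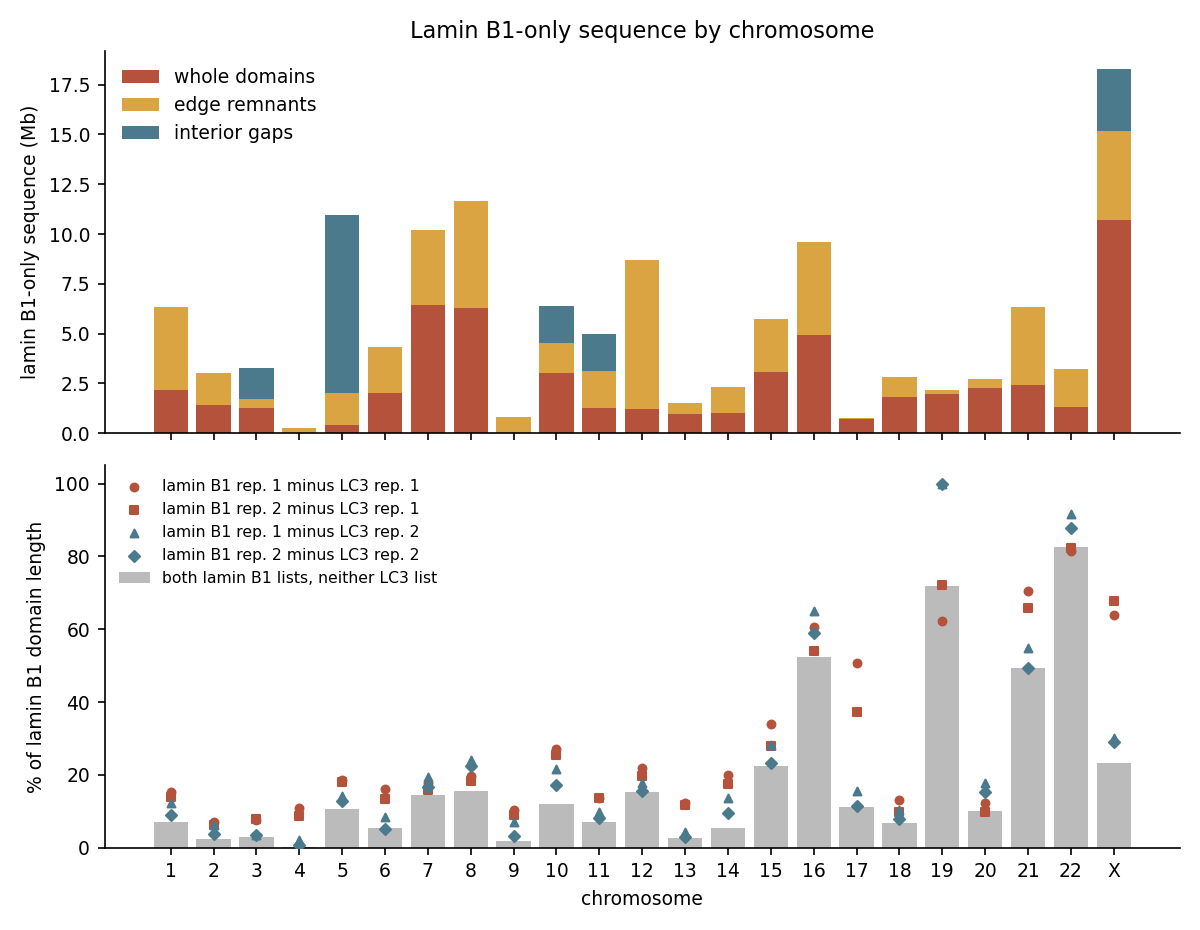
Upper panel, lamin B1-only sequence in Mb on each chromosome, stacked by kind. Lower panel, its percent of lamin B1 domain length (bars: all 4 lists used, points: 4 pairs of single lists), with chromosomes 16, 19, 21 and 22 at 49.4% to 82.5%, and X at 23.4% with points from 29.2% to 67.8%.

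Whole domains lay near the first or last listed domain of a chromosome at a higher share than domains with LC3 of both lists, a difference that was not tested. Within 5 Mb of the first or last domain of any list lay 19 of 75 whole domains (25.3%). The same held for 17 of 66 domains with LC3 in 1 list at a time (25.8%) and for 41 of 456 with LC3 of both lists at once (8.99%). Over all lamin B1 consensus domains it was 12.9%. Chromosome lengths were not used, so these ends are not the chromosome ends themselves. Some lie far inside a chromosome. The whole domain at 28116001 on chromosome 19, beside the centromere, was the first listed there, and so was the whole domain at 10368001 on chromosome 21. Several more of the whole domains counted here stood together on chromosome 15, from 20964001 onwards. The share is therefore no measure of closeness to chromosome ends. Distance to the neighbouring lamin B1 domain was much the same in the first and the last of these groups, with medians of 1761 and 1611 kb.

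Some whole domains followed each other. Counted along each chromosome, 45 whole domains had no whole domain as a neighbour in the order of lamin B1 consensus domains, and 30 stood in series of 2 or more. There were 6 series of 2, 3 of 3, 1 of 4 and 1 of 5. The series of 5 was on chromosome 15 between 20964001 and 25504000, and its domains summed to 1.77 Mb. The series of 4 was on chromosome 16 between 9396001 and 35154000, a span of 25.8 Mb in which its domains summed to 3.39 Mb. Series of 3 were found on X between 57897001 and 67040000, on chromosome 10 between 20536001 and 26516000 and on chromosome 7 between 149628001 and 154132000. The series on chromosome 7 began 2.03 Mb after the domain with the long tail described above.

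LC3-only stretches, taken the same way from the LC3 side, had another makeup. Of 365 LC3-only stretches (180 Mb), 35 were whole LC3 consensus domains without lamin B1 (17.3% of their length), 256 were edge remnants (40.3%) and 74 were interior gaps (42.4%). Among the lamin B1-only stretches, whole domains held 44.9% of the length and interior gaps 13.7%. Whole domains without the other protein were 75 of 597 for lamin B1 (12.6%) and 35 of 422 for LC3 (8.29%). The difference between the 2 sets was not tested.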

How the data were processed

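Domain lists of 2 lamin B1 and 2 LC3 ChIP-seq samples of IMR90 cells were used. The submitters' processing notes name GRCh37/hg19 as the build, bedtools, Bowtie2 and bcl2fastq 2.16.0.10. Each deposited list holds the start and end of the domains of 1 replicate, found by EDD according to its name, a program for wide domains. The sources used here do not give its version, settings or use of input, and the depth is unknown.

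The lists were converted to 1 kb arrays in NumPy 2.4.6 under Python 3.11.15, tables were made with pandas 2.3.3, and figures were drawn with Matplotlib 3.10.9. A stretch was a contiguous run in both lamin B1 lists and in neither LC3 list, and a consensus domain a run in both lists of an antibody. Printed starts count from 1. The assignment to whole domain, edge remnant or interior gap was checked on simulated domains of known kind. The text names the 10 longest and 3 shortest whole domains, the 5 longest remnants and gaps, the domains nearest each limit, and the chromosomes with most and least.

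Replicate numbers are not said to mark a shared batch, so lists were not treated as paired. No test was made, since the lists chose the stretches. The stretches, classes and gene names were chosen with earlier results of these data known.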

Additional observations from a re-analysis of the deposited data

How the results depend on the processing

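Of 89 values under alternative settings, 64 stayed within 1 SD of the 4 pairs of single lists (counts: within 1.5 times) and 25 moved. The 64 include values that could not move, such as those of the planned replicate block described below. The SD was also wide, at 52.0 Mb for a main total of 126 Mb, so the tally is no measure of stability. Leaving out 1 list gave 311 to 345 stretches, 135 to 237 Mb, 9.79% to 18.1% of lamin B1 length, 77 to 124 whole domains, 44.8% to 53.9% of length in whole domains, a median whole domain of 0.593 to 0.671 Mb and 12.6% to 20.7% of length on X. The upper value came from leaving out LC3 replicate 2 in each case but the share in whole domains, where it came from leaving out LC3 replicate 1. Removing LC3 only where both lists held it gave 407 stretches, 265 Mb, 20.3% of lamin B1 length and 141 whole domains with 52.4% of the length and a median of 0.683 Mb. On autosomes alone the median whole domain was 0.563 Mb. The planned replicate block, bases in both same-numbered differences, equals the main definition by construction. The mean of the same-numbered pairs, a replicate block added after the data were seen, gave 413 stretches, 222 Mb, 15.9%, 121.5 whole domains and 50.3% of length in them. The crossed pairs gave 396 stretches, 230 Mb, 16.5%, 122.5 whole domains, 50.5% and a median of 0.656 Mb, so pairing by number made little difference. Merging domains under 100 kb apart left 72 or 75 whole domains. Allowing LC3 on up to 5% of a domain, or asking for 100 kb of distance from LC3, changed nothing because no domain lay between these limits. The shortest LC3 domains of the 2 lists measured 360 and 177 kb, so 1 lying wholly inside a short lamin B1 domain covered more than 5% of it. An LC3 domain that crossed a lamin B1 edge, or lay in a long lamin B1 domain, could cover less. Why no domain fell within the 5% setting was not tested. A minimum of 100 kb left 175 stretches and 124 Mb. Gene density, GC content and gene groups were planned but not run, because no genome or annotation of this build was used here. Unknown depth limits what absence from a list can show.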
